A study of Mus musculus with 24 samples.

Results

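The liver transcriptome of wild-type mice given pregnenolone 16α-carbonitrile (PCN) was compared with that of wild-type mice given vehicle. The comparison holds the 4 libraries of each group that the labels name as wild-type with PCN and wild-type with vehicle, which are 8 of the 24 libraries of the series. All animals were male C57BL/6N mice aged 19 to 20 weeks on standard chow, from groups of 9 to 10 mice. Treatment by oral gavage lasted 4 days, with 100 mg/kg PCN or with distilled water, and every mouse was then fasted for 12 h overnight. Each library is a separate animal by its title, and libraries are numbered here within their group in the order of the deposited table, whose columns were assigned to groups by their order because their headers name none. The clock hour of dosing and of killing is not given in the sources used here.

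PCN is a synthetic steroid that activates the pregnane X receptor (PXR, gene Nr1i2) of rodents. PXR is a nuclear receptor of hepatocytes and gut that binds DNA together with the retinoid X receptor and turns on genes for the oxidation, conjugation and export of drugs and bile acids, with the Cyp3a oxidases as its best known targets. Its relative CAR (Nr1i3) shares part of these targets. PXR has also been tied to lipid storage, glucose output and bile acid synthesis in the liver, and the comparison with vehicle asks which genes respond to the agonist.

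The libraries held 6636945 to 24636139 counts with vehicle and 8159507 to 16331776 with PCN, and values below are normalised read counts, scaled to a common library size. All 11 listed hepatocyte markers were read in every library, and 0 of them passed the test. Summed over a list, macrophage markers ranged from 6882 to 9997 with vehicle and from 5475 to 8249 with PCN, and 0 of 14 passed (median log2 fold change -0.44). Endothelial markers ranged from 7606 to 8379 and from 6397 to 9430 (0 of 13 passed). Stellate cell markers ranged from 4792 to 5882 and from 4458 to 7233. Of 11 tested 1 was higher, Lrat (9.09%, beside 1.91% of all genes tested). The share of counts from mitochondrially encoded genes was 1.74% to 1.89% with vehicle and 1.97% to 2.24% with PCN, so the groups did not overlap, while 0 of its 12 tested genes passed. The part of these shifts in the results was not tested. In whole liver, fewer cells of a type and less RNA per cell cannot be told apart.

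PCN changed 459 of 12938 tested genes, 3.55%, at an adjusted p under 0.05 (edgeR quasi-likelihood test, Benjamini-Hochberg adjustment over all genes tested). Of these 247 were higher (1.91% of genes tested) and 212 were lower (1.64%). Changes were mostly small. The median size was 0.66 on the log2 scale in both directions, and 59 of the higher and 51 of the lower genes changed by at least 2-fold. The largest rises among named genes with adequate counts were in Myc, Wee1, Per3 and Bmf, and the largest falls in Hspa1b, Slc8a1, Arntl and Igfbp1. The median log2 fold change of all tested genes was -0.01. Every PCN library lay above every vehicle library for 750 of the tested genes (5.8%) and below for 736 (5.69%), 11.5% in all. The count of calls changed with the library left out. Without vehicle library 1, 2 or 3 it was 266, 291 and 285, and without PCN library 2 or 4 it was 223 and 262.

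**Figure D1:**
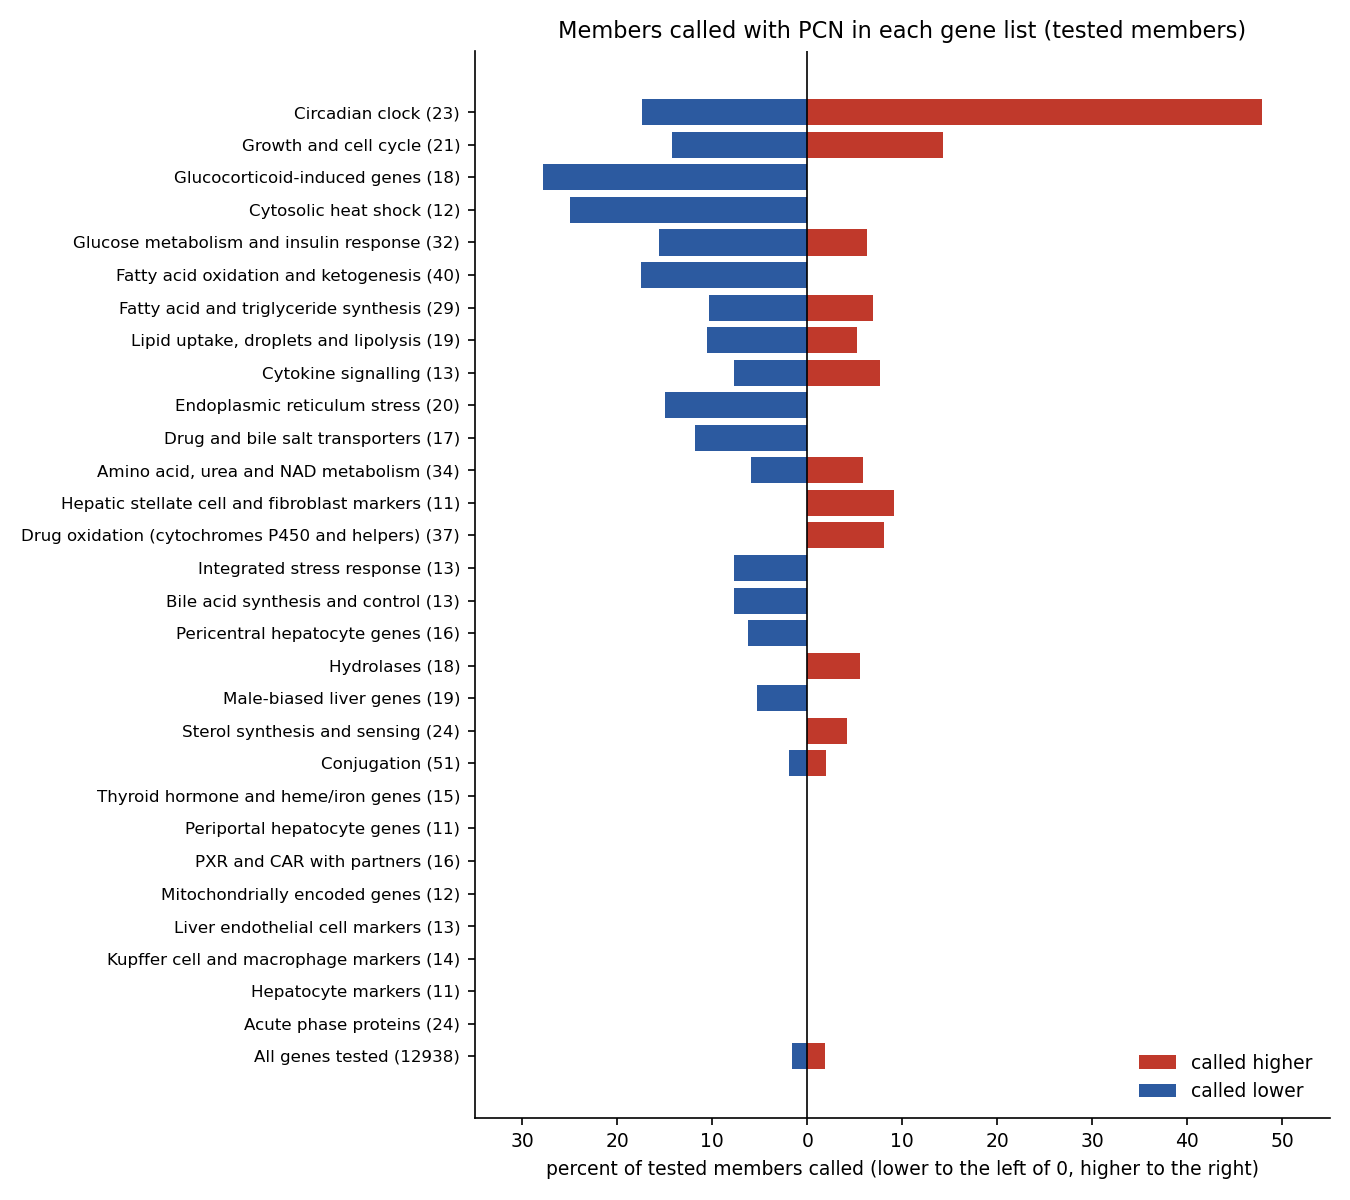
Percent of the tested members of each gene list that were called with PCN, higher to the right of 0 and lower to the left (edgeR, adjusted p under 0.05; tested members in parentheses, lists with at least 10 of them). The circadian clock list has 11 of 23 members higher and 4 lower, and glucocorticoid-induced and cytosolic heat shock genes have calls on the lower side alone. Of all genes tested 1.91% are higher and 1.64% lower.

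Of 37 tested drug oxidation genes 3 rose (8.11%, beside 1.91% of all genes tested), 0 fell and 34 did not pass, with a median log2 fold change of 0.09. The receptor itself did not pass. Nr1i2 (chr16:38248323-38294824, minus strand, GRCm38) lay at 1364, 1443, 1172 and 1507 in the vehicle libraries and at 1298, 1378, 1495 and 1793 in the PCN libraries, and the groups overlapped (log2 fold change 0.12, 95% interval -0.12 to 0.36, adjusted p = 0.602, edgeR). CAR, Nr1i3, was at 7793 ± 849.8 with vehicle and 8646 ± 2031 with PCN (SD, n = 4; adjusted p = 0.628, edgeR), and 0 of the 16 tested receptors, partners and coregulators passed.

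Cyp3a11 (chr5:145854426-145879964, minus strand, GRCm38), the main Cyp3a oxidase of mouse liver, was read at 29288, 42172, 35287 and 49918 in the vehicle libraries and at 58463, 74745, 94209.9 and 121775 in the PCN libraries. Every PCN library lay above every vehicle library, with PCN library 4 highest and PCN library 1 nearest to the vehicle range. The rise was 2.23-fold (log2 fold change 1.16, 95% interval 0.68 to 1.63, adjusted p = 0.0135, edgeR), and it held in all 8 fits with 1 library left out (highest adjusted p = 0.0464). Cyp3a44, a female-biased member of the same cluster, had 19.1, 16.2, 8.08 and 17.1 in the vehicle libraries and 28.0, 54.0, 35.0 and 65.8 in the PCN libraries. It rose 3.02-fold from a low level without overlap (adjusted p = 0.0254, edgeR), and the call was lost without vehicle library 1, 2 or 3 or PCN library 2 or 4 (adjusted p = 0.0538, 0.0768, 0.0606, 0.0837 and 0.0882, edgeR). Reads may be split between the closely related Cyp3a genes. Cyp3a13 and Cyp3a25, which are also Cyp3a oxidases, had log2 fold changes of 0.12 and 0.25 and did not pass (adjusted p = 0.526 and 0.75, edgeR).

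The promoter of Cyp3a11 is shown because PXR binds a short motif in pairs. It is given from position -250 to +50 around the RefSeq start (chr5:145879805-145880104, minus strand, GRCm38.p6), which can differ from the gene boundary in the count table, and the capitals mark the match to a direct repeat with a spacer of 4 bases.
Cyp3a11: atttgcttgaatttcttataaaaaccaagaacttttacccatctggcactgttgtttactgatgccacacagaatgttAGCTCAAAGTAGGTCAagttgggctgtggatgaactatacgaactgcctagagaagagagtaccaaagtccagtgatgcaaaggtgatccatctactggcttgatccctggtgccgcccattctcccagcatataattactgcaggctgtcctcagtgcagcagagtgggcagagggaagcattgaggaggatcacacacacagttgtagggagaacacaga
The motif searched on both strands was AGNTCA, 4 free bases and AGNTCA again, and its first base lies at -172. The match overlaps one to the ROR element TAGGTCA at -163. The direct repeat was found for 7 of the 9147 tested genes with such a promoter window (0.0765%, counting any start of a gene) and for 2 of the 185 genes called higher that have one, Cyp3a11 and Tfdp2. A direct repeat with a shorter spacer (DR3) and an everted repeat (ER6) were also searched. Each was found for 2 of the 9147 genes (0.0219%) and for 0 of the 185 called higher. Of the 32 drug oxidation genes with a promoter window, 1 held the repeat shown and 0 held DR3 or ER6. A match of letters is a description and not a site of binding.

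Of the other oxidation genes Fmo2 passed. Cyp2b10, the classical CAR target, had 9.54, 84.4, 22.2 and 206 in the vehicle libraries and 39.7, 18.0, 66.6 and 7.40 in the PCN libraries. Its groups overlapped, and vehicle library 4 was highest (log2 fold change -1.46, 95% interval -3.15 to 0.24, adjusted p = 0.353, edgeR). Cyp2c55 had 27.4, 27.6, 24.2 and 52.2 with vehicle and 38.8, 46.5, 138 and 165 with PCN. PCN libraries 3 and 4 stood high and PCN libraries 1 and 2 lay within the vehicle range (adjusted p = 0.0955, edgeR; 0.0307 without PCN library 1). Por, the reductase that passes electrons to all microsomal P450 enzymes, had 4207, 5728, 4861 and 10299 with vehicle and 9511, 10222, 9089 and 13475 with PCN. Vehicle library 4 reached the PCN range and the other 3 vehicle libraries lay below it. Por did not pass over all 8 libraries (log2 fold change 0.75, adjusted p = 0.118, edgeR) and passed without vehicle library 4 (log2 fold change 1.10, adjusted p = 0.00337, edgeR). The same library carried high counts of several genes of this kind, and without it 6 of the 37 drug oxidation genes were called higher, Cyp3a59, Por and Fmo1 in addition to Cyp3a11, Cyp3a44 and Fmo2. Fmo2, a flavin oxidase, was at 228 ± 152 with vehicle and 605 ± 106 with PCN (SD, n = 4; 2.65-fold, adjusted p = 0.0404, edgeR). Its call was lost in 7 of 8 fits with 1 library left out, and only the fit without vehicle library 4 kept it (highest adjusted p = 0.114, edgeR). Cyp2a5 and Alas1, the latter the rate-limiting enzyme of heme supply, had log2 fold changes of 0.94 and 0.62 and did not pass (adjusted p = 0.165 and 0.217, edgeR).

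**Figure D2:**
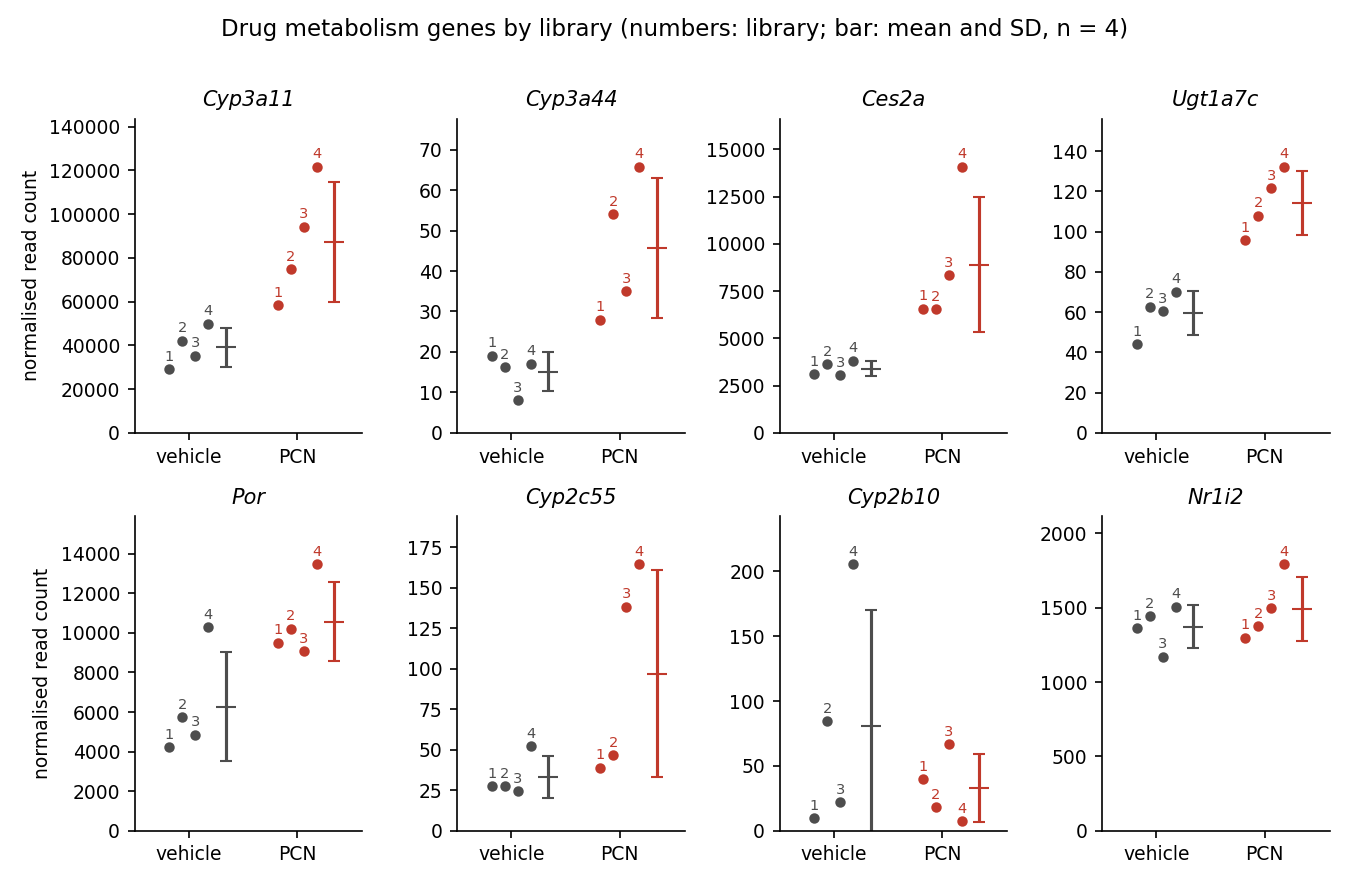
Normalised read counts of 8 drug metabolism genes in each library (dots numbered by library, vehicle grey, PCN red), with the group mean and SD (n = 4) beside the dots. Cyp3a11, Cyp3a44, Ces2a and Ugt1a7c do not overlap between groups, vehicle library 4 reaches the PCN range of Por, and the SD bar of Cyp2b10 with vehicle is cut at 0.

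Among hydrolases 1 of 18 tested members passed (5.56%, beside 3.55% of all genes tested). Ces2a (chr8:104734003-104741634, plus strand), a carboxylesterase that cleaves ester drugs and lipids, had 3096, 3632, 3057 and 3818 with vehicle and 6573, 6549, 8333 and 14091 with PCN. Its groups were well apart and PCN library 4 stood highest. The rise was 2.61-fold (95% interval 0.92 to 1.86 on the log2 scale, adjusted p = 0.00599, edgeR) and held in all 8 fits with 1 library left out (highest adjusted p = 0.0225). Ces1d had 5833, 7553, 8643 and 7417 with vehicle and 6604, 11324, 15052 and 18702 with PCN, with PCN library 1 inside the vehicle range, and did not pass (adjusted p = 0.104, edgeR). Without PCN library 1 the hydrolase count became 4, with Ces1d (adjusted p = 0.00772, edgeR), Ces1g and Ces2g added. Across the 8 fits with 1 library left out it was 1 to 4.

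Of 51 tested conjugation genes 1 rose and 1 fell (3.92%, near the 3.55% of all genes tested), with a median log2 fold change of 0.04. Ugt1a7c, a glucuronosyltransferase, had 44.1, 62.7, 60.6 and 70.2 with vehicle and 95.7, 108, 122 and 132 with PCN. Every PCN library lay above the vehicle range (1.93-fold, adjusted p = 0.015, edgeR), and the call was lost without PCN library 4 (adjusted p = 0.0552, edgeR). Ugt1a genes share their 3′ exons, so reads may be split between them, and Ugt1a1 did not pass (log2 fold change 0.20, adjusted p = 0.346, edgeR). Gclc, the catalytic subunit of the first enzyme of glutathione synthesis, was at 4972 ± 752 with vehicle and 3509.9 ± 375 with PCN (SD, n = 4) and fell 1.42-fold (adjusted p = 0.0291, edgeR). Its call was lost without vehicle library 1 or 3 or PCN library 1, 2 or 4 (adjusted p = 0.0598, 0.0621, 0.0612, 0.0964 and 0.0851, edgeR). Of 19 tested glutathione transferases 0 passed. Gsta1 was too low to be tested.

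Among the tested bile acid genes and transporters the 3 calls were falls. Nr0b2 (chr4:133553376-133556536, plus strand) encodes SHP, the corepressor through which bile acids lower their own synthesis. It had 636, 588, 503 and 601 with vehicle and 223, 174, 215 and 248 with PCN. The groups were far apart and each was tight, and the fall was 2.71-fold (log2 fold change -1.43, 95% interval -1.68 to -1.18, adjusted p = 9.84e-05, edgeR; highest adjusted p = 0.000564 with 1 library left out). Abcb11, the bile salt export pump, was at 8951 ± 796 and 6561 ± 712, and Abcb4, the phospholipid floppase of bile, at 8795 ± 98.2 and 6895 ± 498, with vehicle and PCN respectively (SD, n = 4). They fell 1.36-fold and 1.28-fold (adjusted p = 0.0267 and 0.0251, edgeR). Both calls were lost without vehicle library 1 or 2 or PCN library 2 or 4 (adjusted p up to 0.0896), and that of Abcb4 also without vehicle library 3 (0.0656) or PCN library 1 (0.0521, edgeR). The other 15 of 17 tested transporters did not pass, so 11.8% were called, beside 3.55% of all genes tested. Among bile acid enzymes 0 of 8 passed, and Nr0b2 was the 1 call of 13 tested bile acid genes (7.69%). Cyp7a1, the rate-limiting enzyme, had 2118, 1518, 1546 and 4393 with vehicle and 2368, 3208, 2945 and 4554 with PCN, overlapping ranges (log2 fold change 0.45, adjusted p = 0.477, edgeR). Without vehicle library 4 Cyp7a1 was called higher (log2 fold change 0.92, adjusted p = 0.0261, edgeR). Cyp8b1, the sterol 12-alpha-hydroxylase that sets the share of cholic acid, had 9296, 8339, 9077 and 15228 and 3742, 5425, 10258 and 7438 (adjusted p = 0.239, edgeR).

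The circadian clock held the largest share of calls of the lists, 65.2% beside 3.55% of all genes tested. Among its 23 tested members 11 rose (47.8%, beside 1.91%), 4 fell (17.4%, beside 1.64%) and 8 did not pass. The median log2 fold change was 0.69. In the core loop, the activators Bmal1 (Arntl), Clock and Npas2 drive transcription of Per, Cry and Rev-erb repressors through E-boxes. ROR activators and Rev-erb repressors act on Arntl through ROR elements, and the output factors Dbp, Tef and Nfil3 act on D-boxes. The hour of killing, which these genes follow, is not known here for either group, and its part in the result was not tested. Across fits with 1 library left out, 9 to 12 clock genes were higher and 3 to 5 lower.

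Arntl (chr7:113207465-113314126, plus strand) had 229, 119.5, 107 and 139 with vehicle and 56.0, 22.5, 36.6 and 46.1 with PCN. All PCN libraries lay below all vehicle libraries, with vehicle library 1 highest (3.69-fold lower, 95% interval -2.46 to -1.20 on the log2 scale, adjusted p = 0.00622, edgeR). Clock, its partner, had 2237, 1805, 2010.1 and 1763 and 1287, 1085, 1215 and 972, a tight separation of a smaller size (1.71-fold lower, adjusted p = 0.00284, edgeR). Npas2, the alternative partner, was low with vehicle, at 26.2, 21.6, 16.2 and 22.0, and near 0 with PCN, at 5.42, 0, 1.67 and 1.65. Its fall of 9.86-fold (adjusted p = 0.00721, edgeR) became 19.5-fold without PCN library 1, which held most of the PCN counts.

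Of 10 tested repressors 6 rose, 0 fell and 4 did not pass, beside 1.91% higher and 1.64% lower of all genes tested. Per3 (chr4:151003652-151044665, minus strand) had 327, 591, 416 and 703 with vehicle and 1452, 2252, 1916 and 2693 with PCN. The lowest PCN library was above the highest vehicle library by more than the range of the vehicle group (4.08-fold higher, log2 fold change 2.01, adjusted p = 0.00128, edgeR). Per2 had 399.5, 687, 501 and 493 and 822, 1147, 926 and 1218, and it rose 1.98-fold (adjusted p = 0.00847, edgeR). Cry2 had 563, 692, 578 and 765 and 1069, 1142, 1167 and 1321 (1.81-fold higher, adjusted p = 0.00206, edgeR). Both were free of overlap and held with any 1 library left out. Ciart, a repressor of the Clock and Bmal1 pair, had 53.7, 193, 48.5 and 175 with vehicle and 381, 436, 401 and 444 with PCN. The PCN libraries were close together while the vehicle libraries split, 1 and 3 being low (3.53-fold higher, adjusted p = 0.0158, edgeR; 0.0518 without PCN library 2). Vehicle libraries 1 and 3 also lay below vehicle libraries 2 and 4 in Per3, Cry2, Dbp, Tef, Wee1 and Usp2. They did not in Per2, Nr1d2 or Cry1. The part of this unevenness in the result was not tested. Nr1d2, Rev-erb beta, rose 1.40-fold (adjusted p = 0.00357, edgeR). Nr1d1, Rev-erb alpha, had 1823, 1678, 2485 and 2117 with vehicle and 1884, 1235, 1092 and 1032 with PCN. PCN library 1 lay inside the vehicle range and the other 3 below it, and Nr1d1 did not pass (log2 fold change -0.62, adjusted p = 0.0878, edgeR; 0.00633 without PCN library 1). Per1 had overlapping groups at 1111 ± 148 and 1067 ± 144 (SD, n = 4; adjusted p = 0.783, edgeR). Cry1 rose 1.65-fold (adjusted p = 0.0433, edgeR), and its call was lost in 6 of 8 fits with 1 library left out, all but those without PCN library 1 or 3 (highest adjusted p = 0.122).

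Output genes gave 4 higher and 1 lower of 8, beside 1.91% and 1.64% of all genes tested. Dbp, the D-box activator, had 651, 1266, 754 and 1276 with vehicle and 2142, 2712, 2236 and 2313 with PCN, and rose 2.38-fold without overlap (adjusted p = 0.00622, edgeR). Tef, of the same family, rose 1.75-fold (adjusted p = 0.00606, edgeR). Wee1, a kinase that delays entry into mitosis, had 73.9, 192, 60.6 and 84.0 and 289, 514, 504 and 548. PCN library 1 was the lowest of its group and still above the vehicle range (4.52-fold higher, adjusted p = 0.00508, edgeR). Usp2, a deubiquitinase, had 249, 749.9, 216 and 466 and 1247, 1409, 1224 and 1639.6, and rose 3.28-fold (adjusted p = 0.012, edgeR). Nfil3, the D-box repressor, had 289, 227, 369.7 and 257 and 200.4, 166, 153 and 172, and fell 1.65-fold (adjusted p = 0.0264, edgeR). The Nfil3 call was lost without vehicle library 1 or 3 (adjusted p = 0.0678 and 0.0524) or PCN library 2, 3 or 4 (0.0867, 0.0615 and 0.0775, edgeR), and with limma voom (0.0547). Hlf, the third activator of the family, did not pass (adjusted p = 0.0759, edgeR).

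**Figure D3:**
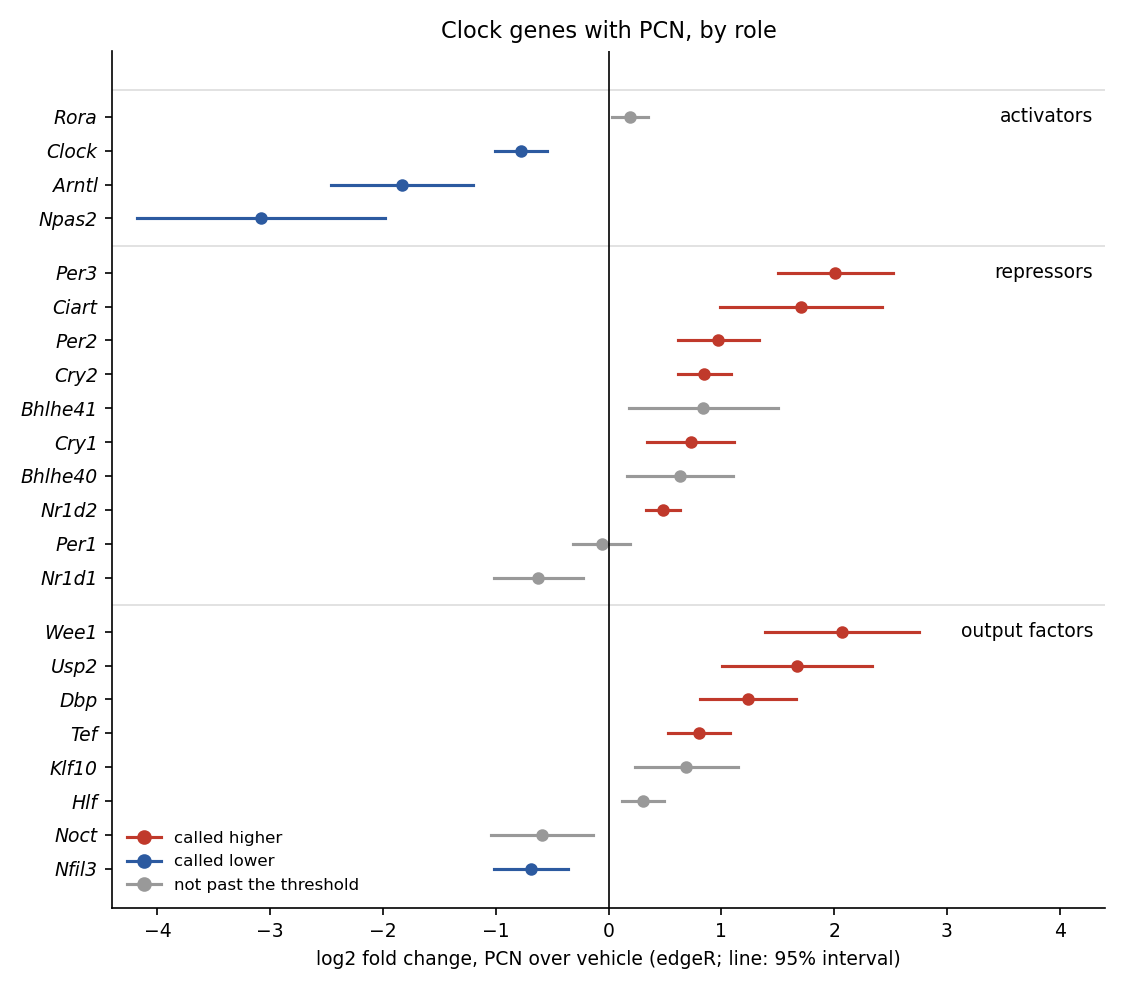
Log2 fold change of PCN over vehicle with its 95% interval for 22 of the 23 tested clock genes, by role (edgeR; red called higher, blue called lower, grey not past the threshold). Arntl, Clock and Npas2 lie below 0, and 6 of 10 repressors and 4 of 8 output genes are called above 0.

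The promoters of 3 clock genes are shown because they hold the elements named above. The motifs searched on both strands were E-box CACGTG, D-box TTANGTAA and ROR element TAGGTCA, and the capitals mark the element named before each line. Per3 (chr4:151044616-151044915, minus strand, GRCm38.p6) holds D-boxes at -205 and -158, Ciart (chr3:95882179-95882478, minus strand, GRCm38.p6) holds E-boxes at -116, -58 and -44, and Arntl (chr7:113207261-113207560, plus strand, GRCm38.p6) holds a ROR element at +31.
Per3: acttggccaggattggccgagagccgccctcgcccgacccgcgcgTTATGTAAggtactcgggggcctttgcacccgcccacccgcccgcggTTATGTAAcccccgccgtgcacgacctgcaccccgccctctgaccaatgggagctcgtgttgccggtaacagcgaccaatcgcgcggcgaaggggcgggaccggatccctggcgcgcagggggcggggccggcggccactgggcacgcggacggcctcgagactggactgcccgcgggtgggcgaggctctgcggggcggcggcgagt
Ciart: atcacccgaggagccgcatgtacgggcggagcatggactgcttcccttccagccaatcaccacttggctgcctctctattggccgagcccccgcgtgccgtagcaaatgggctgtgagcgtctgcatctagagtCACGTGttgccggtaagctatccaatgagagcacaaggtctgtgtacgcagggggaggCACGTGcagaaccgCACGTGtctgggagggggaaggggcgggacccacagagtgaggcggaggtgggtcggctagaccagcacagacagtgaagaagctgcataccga
Arntl: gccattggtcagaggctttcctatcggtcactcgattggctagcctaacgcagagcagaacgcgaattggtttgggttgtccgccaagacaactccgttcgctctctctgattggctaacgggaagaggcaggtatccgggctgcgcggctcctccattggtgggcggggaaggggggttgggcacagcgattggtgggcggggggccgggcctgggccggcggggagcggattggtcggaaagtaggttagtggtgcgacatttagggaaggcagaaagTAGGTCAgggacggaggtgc
An E-box was found for 39 of the 185 genes called higher (21.1%), for 17 of the 155 called lower (11%) and for 11.7% of all 9147. A ROR element was found for 12 of the 155 genes called lower (7.74%), for 3 of the 185 called higher (1.62%) and for 2.73% of all. A D-box was found for 8 of those called higher (4.32%), for 3 of those called lower (1.94%) and for 1.97% of all. Of the 18 tested clock genes with a promoter window 5 held an E-box, 2 a ROR element and 1 a D-box. Per1, which did not pass, was among those with an E-box. These shares are descriptions without a test.

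Part of the genes that glucocorticoids and fasting raise in liver fell. Of 18 tested glucocorticoid-induced genes 5 fell (27.8%, beside 1.64% of all genes tested), 0 rose and 13 did not pass. The median log2 fold change was -0.31. Tsc22d3 (chrX:140539528-140600659, minus strand), the anti-inflammatory mediator GILZ, had 2638, 3276, 2257 and 2708 with vehicle and 826, 765, 889 and 929 with PCN. Each group was tight, with a wide gap between them (3.19-fold lower, 95% interval -1.92 to -1.43 on the log2 scale, adjusted p = 3.11e-05, edgeR). Tat, tyrosine aminotransferase, a long used marker of the glucocorticoid response of liver, had 12789.9, 19202, 13984 and 21503 and 9504, 7267, 7551 and 8954, and fell 2.03-fold (adjusted p = 0.00634, edgeR). Not all such genes moved this way. Fkbp5 had 1107, 1563, 851 and 2538 with vehicle and 2416, 1980.2, 1839.5 and 2322 with PCN, with vehicle library 4 highest of all (log2 fold change 0.49, adjusted p = 0.35, edgeR), and it was called higher without vehicle library 4 (log2 fold change 0.86, adjusted p = 0.0224, edgeR). Per1 and Pck1 did not pass. Ddit4, an inhibitor of the growth kinase mTORC1, fell 2.75-fold (adjusted p = 0.0227, edgeR). The groups overlapped, with vehicle library 3 at 58.6 inside the PCN range of 50.2 to 66.6. Its call was lost without vehicle library 2 or PCN library 2 or 4 (adjusted p = 0.0699, 0.0725 and 0.0774, edgeR) and with limma voom (0.0533). Serpina6, which encodes the blood carrier protein of corticosterone, rose 1.82-fold, from 1453 ± 278 to 2643 ± 548 (SD, n = 4; adjusted p = 0.0135, edgeR; 0.0513 without PCN library 2).

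Insulin and FoxO response genes gave 4 lower and 1 higher of 14, beside 1.64% and 1.91% of all genes tested. In the whole glucose and insulin list of 32 tested genes 15.6% were lower and 6.25% higher. Igfbp1 (chr11:7197782-7202546, plus strand), a binding protein of insulin-like growth factors that insulin represses, had 465, 455, 513 and 1027 with vehicle and 243, 214, 115 and 173 with PCN. Vehicle library 4 stood above the other 3, and the groups did not overlap (3.30-fold lower, adjusted p = 0.00749, edgeR). Depp1, a FoxO target that rises with fasting, had 1278, 1031, 1222 and 1153 and 359, 514, 353 and 426, and fell 2.84-fold (adjusted p = 9.84e-05, edgeR). Irs1, an adaptor of the insulin receptor, fell 1.52-fold, and Klf15, a factor of amino acid use in fasting, fell 1.40-fold (adjusted p = 0.0125 and 0.0127, edgeR). The higher gene was the kinase Sik1 (2.22-fold, adjusted p = 0.0487, edgeR), whose groups overlapped and whose call held only in the fit without PCN library 1 among the 8 (highest adjusted p = 0.12), and was lost with limma voom (0.0701). Ppp1r3c, which targets phosphatase to glycogen, had 931, 871, 907 and 809 with vehicle and 364, 384, 516 and 527 with PCN, and fell 1.97-fold without overlap (adjusted p = 0.00193, edgeR). Gys2, liver glycogen synthase, rose 1.30-fold (adjusted p = 0.0465, edgeR), and its call held only in the fit without vehicle library 4 among the 8 (highest adjusted p = 0.135). Pck1 and G6pc, enzymes of glucose output, did not pass. Pck1 was at 48606 ± 10609.5 and 45864 ± 5511, and G6pc at 4387 ± 863 and 3568 ± 1577, with vehicle and PCN respectively (SD, n = 4; adjusted p = 0.763 and 0.576, edgeR).

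Of 40 tested genes of fatty acid oxidation and ketogenesis 7 fell (17.5%, beside 1.64% of all genes tested), 0 rose and 33 did not pass. The median log2 fold change was -0.12. Fgf21, a secreted fasting hormone, had 68.0, 129.8, 133 and 97.9 with vehicle and 50.6, 27.0, 38.3 and 21.4 with PCN. It fell 3.13-fold without overlap (adjusted p = 0.011, edgeR). Angptl4 (chr17:33773750-33781830, minus strand), a secreted inhibitor of lipoprotein lipase that also stands on the glucocorticoid list, had 2919, 3318, 3291 and 3144 with vehicle and 1655, 1728, 1528 and 1682 with PCN. The groups were the tightest of the fasting genes shown, and the fall was 1.92-fold (95% interval -1.10 to -0.78 on the log2 scale, adjusted p = 9.84e-05, edgeR). Both are targets of PPAR alpha. Ppara itself was at 5535 ± 431 and 6104 ± 819 (SD, n = 4) and did not pass (adjusted p = 0.503, edgeR). The other 5 calls were enzymes with falls of 1.26 to 1.85-fold. Ehhadh and Cyp4a14, which act in peroxisomal and omega oxidation, fell 1.85-fold and 1.73-fold (adjusted p = 0.0433 and 0.0273, edgeR). The groups of Ehhadh overlapped. Acot1, Crat and Cpt2, which handle acyl-CoA and carnitine esters, fell 1.54-fold, 1.39-fold and 1.26-fold (adjusted p = 0.0184, 0.0234 and 0.0167, edgeR). Each of these 5 calls was lost in 3 to 6 of the 8 fits with 1 library left out. The list had 2 falls without vehicle library 1 or PCN library 4, and 3 without vehicle library 3 or PCN library 2. It had 5 without PCN library 1 and 6 without vehicle library 4. The highest log2 fold change of the list was 1.74, and 0 to 2 members were called higher across the 8 fits. Acot3 was called higher without PCN library 1 or vehicle library 4 (adjusted p = 0.0278 and 0.0309, edgeR) and with no filter on low counts (0.0388). Acot4 was called higher without PCN library 1 (adjusted p = 0.0445, edgeR). Fgf21 and Angptl4 held in all 8 fits (highest adjusted p = 0.0407 and 0.000903).

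Lipid droplet and lipid synthesis genes moved in both directions. Plin2, the main droplet coat protein of hepatocytes, had 9859, 9509, 11683 and 9558 with vehicle and 5371, 5124, 7533 and 5101 with PCN. Library 3 was highest in each group, and the groups did not overlap (1.76-fold lower, adjusted p = 0.00634, edgeR). Plin5, the coat protein that links droplets to mitochondria, had 1359, 1451, 1081 and 1158 and 842, 682, 876 and 909.9, and fell 1.53-fold (adjusted p = 0.0127, edgeR). Lipe, hormone-sensitive lipase, rose 1.40-fold (adjusted p = 0.0227, edgeR), which was lost without vehicle library 1, 2 or 4 or PCN library 2 or 4 (adjusted p = 0.0599, 0.0575, 0.0525, 0.0663 and 0.0517, edgeR). The other 16 of 19 tested members did not pass, so 15.8% were called, beside 3.55% of all genes tested.

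Of 29 tested genes of fatty acid and triglyceride synthesis 2 rose and 3 fell (17.2%, beside 3.55% of all genes tested). Aacs, which activates acetoacetate for lipid synthesis in the cytosol, had 547, 1001, 442 and 322 with vehicle and 1588, 1707, 2247 and 1892 with PCN. Every PCN library lay above the vehicle range (3.21-fold higher, adjusted p = 0.00749, edgeR). Srebf1, the master regulator of lipogenesis, had 1165, 1598, 1394 and 1173 and 1698, 2331, 2364 and 3730.0. PCN library 4 stood highest and PCN library 1 was close to the vehicle range (1.90-fold higher, adjusted p = 0.0252, edgeR), and the call was lost without vehicle library 1, 3 or 4 or PCN library 2 (adjusted p = 0.0748, 0.062, 0.0513 and 0.0608, edgeR). The lipogenic enzymes Fasn and Scd1 did not pass. Fasn was at 4665 ± 1291 and 6092 ± 2384, and Scd1 ranged from 47580 to 175576 with vehicle and from 76633 to 268963 with PCN (SD, n = 4; adjusted p = 0.453 and 0.603, edgeR). Elovl3, an elongase of saturated very long chain fatty acids that is male-biased and clock-linked in mouse liver, had 5142, 2920.3, 3883 and 2933 with vehicle and 1709, 841, 1347 and 1073 with PCN, and fell 2.99-fold without overlap (adjusted p = 0.00356, edgeR). It was the 1 gene called of 19 male-biased genes (5.26%, beside 3.55% of all genes tested). Mup20, Cyp2d9 and Hsd3b5 did not pass (adjusted p = 0.435, 0.848 and 0.843, edgeR). Insig2, which holds SREBP in the endoplasmic reticulum, had 5025, 3835, 3715 and 6511 and 2090.3, 1262, 3106 and 1335, and fell 2.45-fold (adjusted p = 0.0223, edgeR), a call lost without vehicle library 1 or PCN library 2 or 4 (adjusted p = 0.0552, 0.0698 and 0.0676, edgeR). Lpin2, a phosphatidate phosphatase, fell 1.27-fold (adjusted p = 0.041, edgeR), and its call held only in the fit without PCN library 3 among the 8 (highest adjusted p = 0.118).

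Of 24 tested sterol genes 1 rose and 0 fell (4.17%, near the 3.55% of all genes tested), and 17 had a positive log2 fold change, with a median of 0.22. Stard4, a sterol transfer protein, had 1814, 1689, 1574 and 1482 with vehicle and 2184, 2289, 2540.3 and 2539 with PCN, and rose 1.46-fold (95% interval 0.36 to 0.73 on the log2 scale, adjusted p = 0.00622, edgeR). The log2 fold changes of the 19 enzymes ranged from -0.39 to 0.44.

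**Figure D4:**
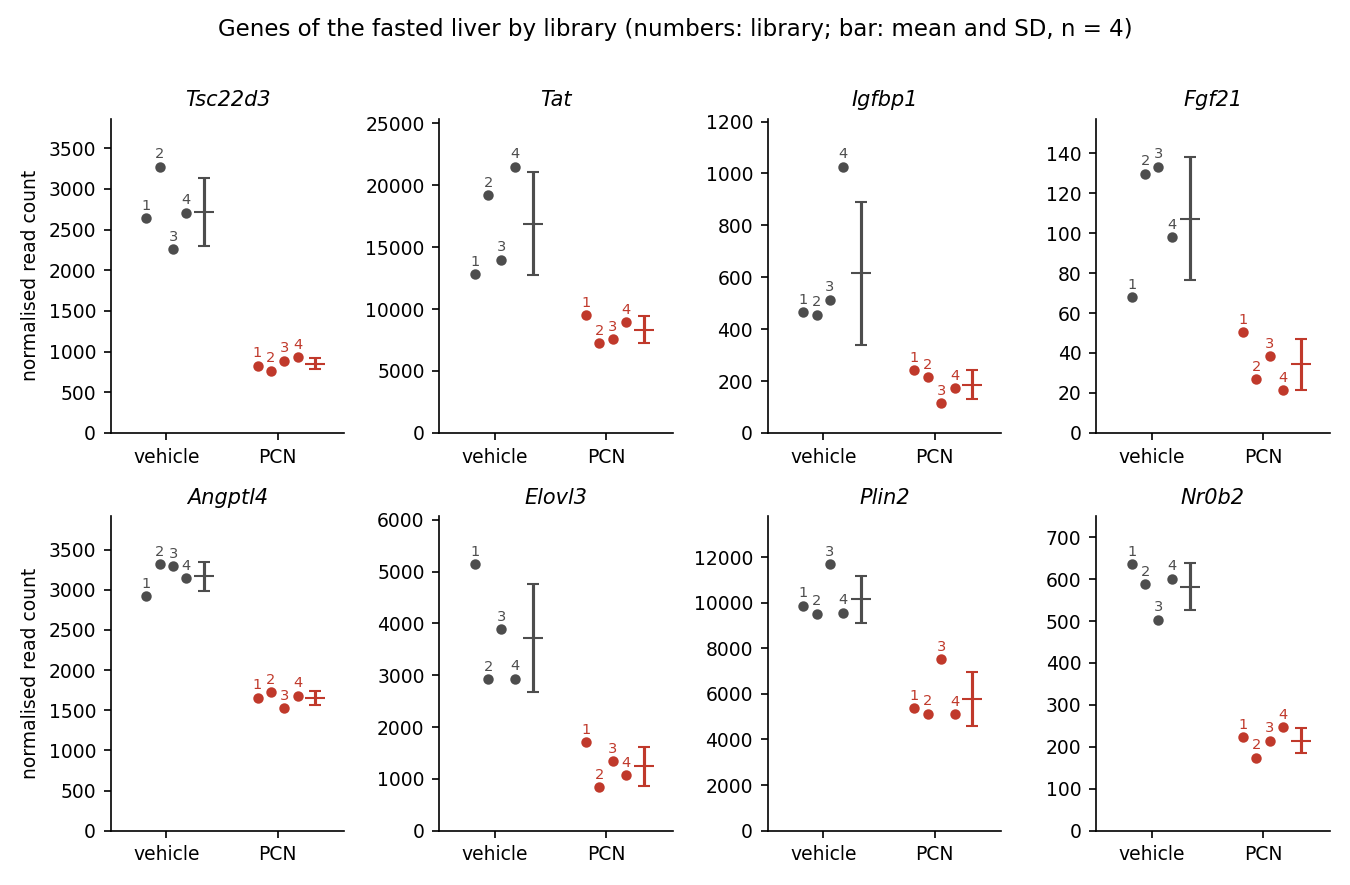
Normalised read counts of 8 genes of the fasted liver in each library (dots numbered by library, vehicle grey, PCN red), with the group mean and SD (n = 4). In all 8 genes every PCN library lies below every vehicle library, and vehicle library 4 stands out in Igfbp1.

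The stress response genes that passed fell with PCN, and 1 vehicle library was high in part of them. Of 20 tested genes of endoplasmic reticulum stress 3 fell (15%, beside 1.64% of all genes tested), 0 rose and 17 did not pass. The log2 fold change was negative for 19 of the 20, with a median of -0.41. Herpud1 (chr8:94386438-94395377, plus strand), which brings misfolded proteins to the degradation complex, had 9147, 11332, 11800.2 and 10833 with vehicle and 5685, 5600.3, 5891 and 6259.7 with PCN. Its groups were far apart and no library stood out (1.84-fold lower, 95% interval -1.08 to -0.68 on the log2 scale, adjusted p = 0.000721, edgeR). Syvn1, the ubiquitin ligase of that complex, had 1443, 1545, 2895 and 1521 and 1159, 1112, 806 and 924. Vehicle library 3 was well above the other 3, which still lay above the PCN range (1.85-fold lower, adjusted p = 0.0404, edgeR). The call was lost without vehicle library 2 or PCN library 2, 3 or 4 (adjusted p = 0.0556, 0.0884, 0.0961 and 0.113, edgeR). Manf, a secreted protein of the same response, had 745, 747, 1091 and 787 and 573, 588, 448 and 512, again with vehicle library 3 highest (1.59-fold lower, adjusted p = 0.018, edgeR; 0.0594 without PCN library 4). The chaperone BiP, Hspa5, had 8832, 8529, 12685 and 9002 with vehicle and 7451, 7718, 7569 and 6396 with PCN. The groups did not overlap, vehicle library 3 stood high, and Hspa5 did not pass (log2 fold change -0.42, adjusted p = 0.0955, edgeR). Its adjusted p with DESeq2 was below the threshold, at 0.0238, and DESeq2 called 6 members of the list lower in all. Without vehicle library 3, Manf, Herpud1 and Syvn1 were still the 3 genes called, and across the 8 fits with 1 library left out 1 to 5 members were called lower. The part of vehicle library 3 in the size of these falls was not tested.

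The promoter of Syvn1 is shown for the element of this response, CCAAT and CCACG with 9 free bases between, in capitals at -44 (chr19:6046326-6046625, plus strand, GRCm38.p6).
Syvn1: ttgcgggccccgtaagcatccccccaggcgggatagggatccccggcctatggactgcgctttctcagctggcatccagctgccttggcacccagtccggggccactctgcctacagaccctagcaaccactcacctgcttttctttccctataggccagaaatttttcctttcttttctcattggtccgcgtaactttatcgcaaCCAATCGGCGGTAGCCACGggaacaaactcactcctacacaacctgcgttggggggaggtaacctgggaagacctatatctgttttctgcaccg
The element was found for 8 of the 18 tested members with a promoter window, against 16 of all 9147 (0.175%), which is a property of the list and not a result of these data. Of the 155 genes called lower with a window 2 held it (1.29%), Syvn1 and Alg12, and no match was found for Herpud1 or Manf. The other holders in the list, Hspa5, Hsp90b1, Calr, Canx, Creld2, Dnajc3 and Pdia6, did not pass.

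Of 12 tested cytosolic heat shock genes 3 fell (25%, beside 1.64% of all genes tested), 0 rose and 9 did not pass. The median log2 fold change was -0.32. Hspa1b, an inducible Hsp70, had 218, 223, 713 and 135 with vehicle and 78.6, 61.5, 35.0 and 62.5 with PCN. Vehicle library 3 was over 3 times any other, and the groups did not overlap (5.43-fold lower, adjusted p = 0.0188, edgeR). Without vehicle library 3 the fold was 3.24. The call was lost without PCN library 2, 3 or 4 (adjusted p = 0.0657, 0.0524 and 0.0628, edgeR) and with limma voom (0.0655). Hspa1b has a near-identical neighbour, Hspa1a, so reads may be split between them. Dnajb1, an Hsp40 partner of Hsp70, had 338, 419.6, 493 and 339 and 256, 259, 253 and 218, and fell 1.61-fold (adjusted p = 0.0135, edgeR). Bag3, a cochaperone of selective autophagy, had 524, 699.7, 925 and 616 and 402, 298, 315 and 376, and fell 1.99-fold (adjusted p = 0.00749, edgeR). Both held in all 8 fits with 1 library left out (highest adjusted p = 0.0494 and 0.0335). In the integrated stress response Atf5, a transcription factor of the mitochondrial stress response, had 6985, 6349, 6814 and 8899.6 with vehicle and 5279, 3841, 4252 and 3633 with PCN, and fell 1.71-fold (adjusted p = 0.00921, edgeR). It was the 1 call of 13 tested members (7.69%, beside 3.55% of all genes tested), and Ddit3 did not pass (adjusted p = 0.383, edgeR).

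**Figure D5:**
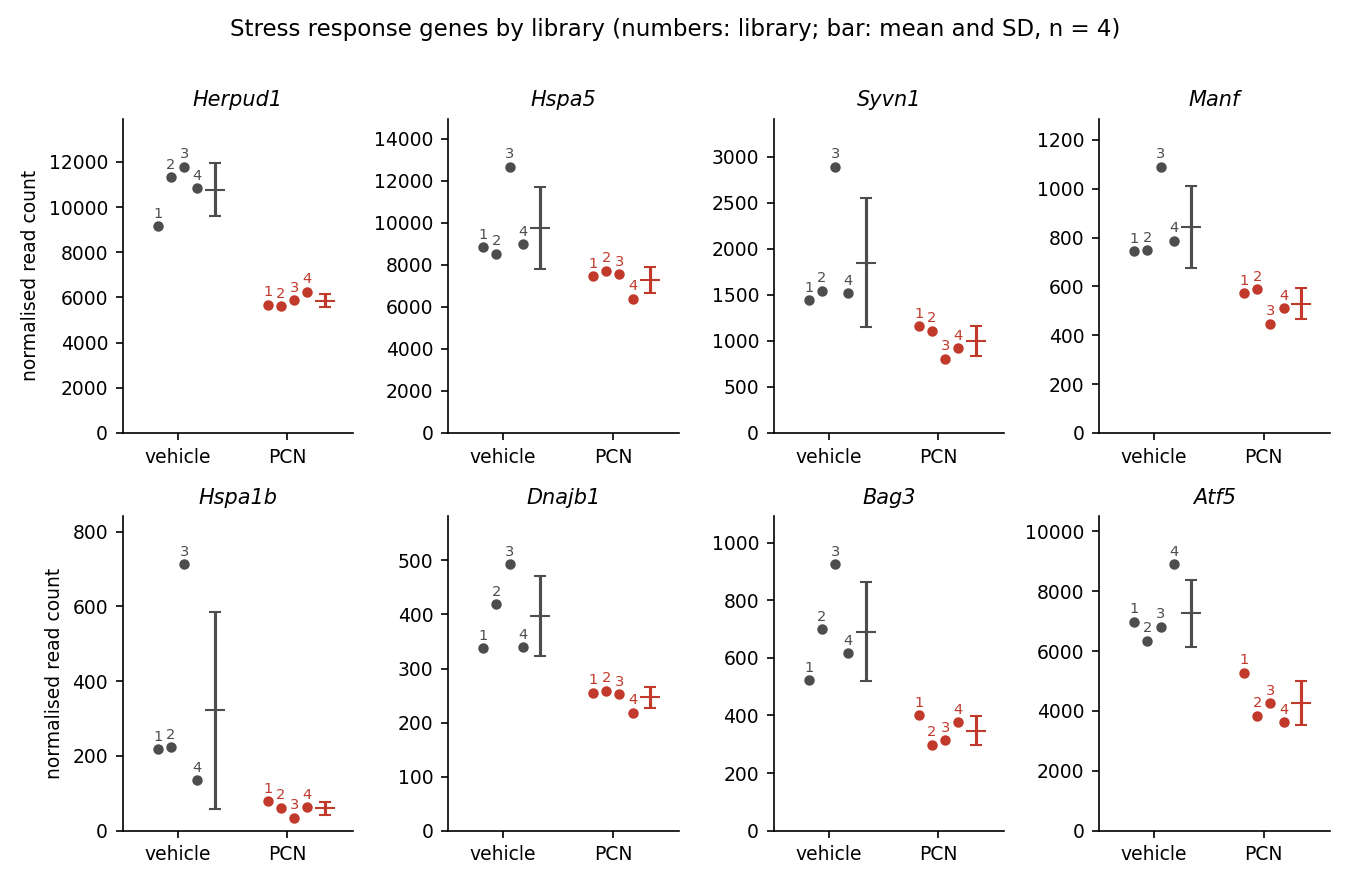
Normalised read counts of 8 stress response genes in each library (dots numbered by library, vehicle grey, PCN red), with the group mean and SD (n = 4). Vehicle library 3 is highest in every gene but Atf5, and stands far above the others in Syvn1, Manf, Hspa5 and Hspa1b.

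The salvage route to NAD held 2 clear rises. Nmrk1 (chr19:18631950-18652194, plus strand), the kinase that turns nicotinamide riboside into NAD precursor, had 295, 317, 273 and 327 with vehicle and 849, 1051, 1001 and 1212 with PCN. The groups were tight and wide apart (3.40-fold higher, log2 fold change 1.75, 95% interval 1.51 to 2.00, adjusted p = 3.11e-05, edgeR). Nampt, the rate-limiting enzyme of nicotinamide salvage and a clock-driven gene, had 869, 1075, 939 and 1019.6 and 1667, 1905, 1669.7 and 2109, and rose 1.88-fold (adjusted p = 0.000835, edgeR). The other 14 of 16 tested genes of tryptophan and NAD metabolism did not pass. Of 18 urea cycle and amino acid genes 2 fell, Tat and Cbs. Over both groups of genes together 11.8% of 34 were called, beside 3.55% of all genes tested. Cbs, cystathionine beta-synthase, fell 1.40-fold (adjusted p = 0.0167, edgeR), which was lost without vehicle library 1 or PCN library 2 or 4 (adjusted p = 0.0583, 0.0595 and 0.0588, edgeR).

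Growth genes gave 3 rises and 3 falls of 21, 14.3% each, beside 1.91% and 1.64% of all genes tested. Myc (chr15:61985391-61990374, plus strand), a transcription factor of cell growth, had 44.1, 34.1, 14.1 and 56.3 with vehicle and 246, 303, 149.8 and 72.4 with PCN. PCN library 4 lay close to the vehicle range and the other 3 far above it (5.19-fold higher, 95% interval 1.36 to 3.21 on the log2 scale, adjusted p = 0.0127, edgeR; highest adjusted p = 0.0479 with 1 library left out). Gadd45a, a growth arrest and stress gene, was low, with 13.1, 16.2, 24.2 and 14.7 and 60.5, 57.0, 45.0 and 39.5, and rose 2.96-fold (adjusted p = 0.00671, edgeR). Igf1, the liver-made growth hormone mediator, had 10932, 9327, 10580.0 and 10538 with vehicle and 14139.8, 13401, 13367 and 15067 with PCN, and rose 1.35-fold (adjusted p = 0.0137, edgeR). Ccn1, a matricellular target of YAP, fell 2.48-fold, and Btg1, an inhibitor of proliferation, fell 1.70-fold (adjusted p = 0.0127 and 0.00357, edgeR). Cdkn1a, the cell cycle inhibitor p21, had 179, 138, 103 and 136 and 57.8, 13.5, 88.2 and 26.3, and fell 2.99-fold (adjusted p = 0.0399, edgeR). Its call held only without PCN library 1 or 3 among the 8 fits (highest adjusted p = 0.113), and was lost with DESeq2 (0.0583). Outside the lists, Bmf, a proapoptotic BH3 protein, was at 87.0 ± 23.0 with vehicle and 358 ± 159 with PCN (4.12-fold higher, adjusted p = 0.00337, edgeR). Trp53inp1, a p53-induced gene of cell death and autophagy, had 3762, 3404, 3978 and 3073 and 1387, 1067, 1565 and 1118 (2.77-fold lower, adjusted p = 0.000185, edgeR). Slc8a1, a sodium and calcium exchanger, had 937, 1190.1, 677 and 1506 and 388, 258, 268 and 292 (3.57-fold lower, adjusted p = 0.00128, edgeR). None of these 3 overlapped between groups.

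Of 24 tested acute phase genes 0 passed, beside 3.55% of all genes tested, and Saa1 and Hamp had adjusted p values of 0.493 and 0.0877 (edgeR; 0.00782 for Hamp without vehicle library 3). Of 13 cytokine signalling genes 1 fell and 1 rose (15.4%). Nfkbia, the inhibitor of NF-kappaB, had 865, 922, 861 and 803 with vehicle and 508, 612, 456 and 502 with PCN, and fell 1.66-fold (adjusted p = 0.00206, edgeR). Its relative Nfkbiz rose 1.40-fold (adjusted p = 0.0437, edgeR), and the call held only without vehicle library 4 or PCN library 3 among the 8 fits (highest adjusted p = 0.124). Of 16 pericentral genes 1 fell (6.25%), Lgr5, a receptor that amplifies Wnt signals around the central vein, at 224 ± 13.4 and 145 ± 29.0 with vehicle and PCN (SD, n = 4; 1.55-fold, adjusted p = 0.03, edgeR). Its call was lost without vehicle library 1, 2 or 3 or PCN library 3 or 4 (adjusted p = 0.0751, 0.0877, 0.0711, 0.0647 and 0.0798, edgeR). The pericentral genes Glul and Cyp2e1 and all 11 tested periportal genes did not pass.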

How the data were processed

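Total RNA of 8 livers was sequenced with a stranded kit, per the labels. HTSeq, DESeq2 and build GRCm38 are named, without versions, in the submitters' processing notes. For the aligner, annotation release and strand setting, the sources used here give nothing. The authors deposited unnormalised counts, whole numbers for each gene. The deposited table lists 19650 genes up to the authors' adjusted p of 0.9898, and genes beyond that were not analysed here. The 8 count columns have numbered headers that name no group or animal. The first 4 were taken as vehicle and the last 4 as PCN, from the order of the groups in the name of the table and the rule that defines the comparison. With that split the log2 fold change here had the sign of the one in the authors' deposited table for 12847 of 12849 tested genes compared (median absolute difference 0.00528). By the titles each library is its own animal. Libraries of a group all differed beyond sampling noise (chi-square over degrees of freedom at least 8.00). The identifier column was out of register with the symbols (0.0104% of lines matched), so genes were taken by symbol, and 97.8% of coordinates equalled a GENCODE M21 gene. Starts count from 0 and were raised by 1.

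Counts were tested with edgeR 4.0.16 in R 4.3.3 (TMM, filterByExpr with a minimum count of 10, quasi-likelihood F test, Benjamini-Hochberg over 12938 genes, adjusted p under 0.05), after a test on simulated data. In the simulation 75.5% of 2-fold and 97.9% of 4-fold changes were called, and 7.65% of the calls were false. Smaller changes were not simulated. Alternatives were other normalisations and filters, DESeq2 1.42.0, limma 3.58.1 voom, and leaving out each library. Normalised counts are counts over the TMM library size times the mean of those sizes, and folds are ratios of group means. Tables and figures used Python 3.11.15 and matplotlib 3.10.9. Intervals are at 95%. Promoter windows came from RefSeq (GRCm38.p6), matched by symbol and chromosome.

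The members and lists were chosen with earlier results of these data known. Genes named were Nr1i2, the 12 largest rises and 12 largest falls among called genes without overlap whose mean reached 50 normalised counts (predicted gene models left out), called list members up to 5 per direction, lead members, and members behind counts of 5 or fewer. Part of these is given, and a few results are not reported here. Cry1, Cry2, Tef, Hlf, Nr1d2, Cpt2, Crat, Serpina6 and genes called only under an alternative stand outside the rule and were chosen after their values were seen.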

Additional observations from a re-analysis of the deposited data

Results flagged for a closer look

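In groups of 4 libraries, a library stood far from the other 3 in 19 of 248 groups of named genes, and chance flags about 1 in 20. Vehicle library 3 was high in Hspa1b (713.1), Plin2 (11683), Syvn1 (2895), Manf (1091) and Hspa5 (12685), 4 of them stress response genes. Vehicle library 4 was high in Igfbp1 (1027), Cyp3a25 (28295), Cyp2c55 (52.2), Nqo1 (124) and Cyp8b1 (15228) and low in Dio1 (1139.5), and vehicle library 2 was high in Cyp2b9 (205.5). PCN library 1 was high in Dtx4 (185.1) and low in Wee1 (288.9), and PCN library 2 was high in Gys2 (3695). PCN library 3 was high in Abcb4 (7641) and Plin2 (7533) and low in Irs2 (526). PCN library 4 was low in Dnajb1 (218). All values are normalised read counts.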

How the results depend on the processing

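DESeq2 called 761 genes (403 higher, 358 lower) against 459 (247 and 212) with edgeR, 457 of them shared. The other tests, normalisations and filters gave 456 to 557 calls. Leaving out 1 library gave 223 to 480 calls, 115 to 277 of them higher and 108 to 203 lower, and the cause of the spread was not tested. Of the 72 called genes that the naming rule covers, 26 lost the call when some single library was left out and 5 under another method, and 0 changed direction in any of these settings. No paired analysis was possible because the groups share no replicate numbers and the columns carry none. Depth limits low genes: 1 read is worth 0.541 to 2.02 normalised counts across libraries, so Npas2 with PCN and Cyp3a44 with vehicle rest on few reads.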

Other observations

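Genes outside the lists moved as well, and those in this paragraph and the next that stand outside the naming rule were chosen after their values were seen. Of 7 tested frizzled receptors, the membrane receptors of Wnt proteins, 3 rose (42.9%, beside 1.91% of all genes tested). Fzd8 had 307, 319.6, 230.3 and 289 with vehicle and 628, 887, 734 and 596 with PCN, and Fzd4 had 656, 722, 612 and 729 and 1272, 1565, 1773 and 1604. They rose 2.48-fold and 2.29-fold, and Fzd7 rose 1.61-fold (adjusted p = 0.000801, 0.00019 and 0.00634, edgeR). Of the Wnt coreceptor family Lrp5 fell 1.58-fold and its relative Lrp4 rose 1.58-fold (adjusted p = 0.0114 and 0.00308, edgeR). All 5 calls held with any 1 library left out. Dtx4, a ubiquitin ligase of the Notch pathway, had 433, 328, 408 and 377 with vehicle and 185, 129, 129.8 and 129 with PCN, and fell 2.70-fold (adjusted p = 0.000492, edgeR).

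Gpcpd1, which splits glycerophosphocholine, had 1448, 1489, 1649 and 2613 with vehicle and 4582, 6416, 4312 and 5079 with PCN, and rose 2.83-fold (adjusted p = 0.00193, edgeR). Chka, the kinase that starts phosphatidylcholine synthesis from choline, had 1432, 796, 1301 and 608 and 474, 375, 363 and 358, and fell 2.64-fold (adjusted p = 0.00885, edgeR). Both were free of overlap and held with any 1 library left out. Pim1, a survival kinase, rose 2.19-fold, and Ppargc1b, a coactivator of mitochondrial and lipid genes, rose 2.12-fold (adjusted p = 0.00102 and 0.0067, edgeR). Tgm1 and Nrep rose 2.99-fold and 3.29-fold (adjusted p = 0.00948 and 0.012, edgeR). Of 299 tested zinc finger genes named Zfp, 12 rose and 1 fell, shares of 4.01% and 0.334% beside 1.91% and 1.64% of all genes, with no test of the family.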
